A study of Homo sapiens with 6 samples.

Results

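Thrombospondin type 1 repeats are short protein modules, and several secreted or membrane proteins that carry them restrain the growth of blood vessels. The transcripts of 10 genes tied to this activity were examined in H660 cells, with and without silencing of MUC1. They comprised 3 thrombospondins (THBS1, THBS2 and THBS4), 3 secreted proteases (ADAMTS1, ADAMTS5 and ADAMTS9), 3 adhesion G protein-coupled receptors of the brain-specific angiogenesis inhibitor (BAI) family (ADGRB1, ADGRB2 and ADGRB3) and CD36, the receptor that thrombospondin-1 binds on endothelial cells. The genes were matched by symbol, and all 10 were found among the 28008 symbols of the count table. The set was selected after the data were known, because THBS1 and ADAMTS1 were higher and ADGRB1 was lower with doxycycline. The differences of these genes between the groups are therefore given as a description, with no p-value. Where calls from the fit over all genes are counted for them, the counts support nothing.

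H660 (NCI-H660) is an established neuroendocrine prostate cancer cell line. All cells carried a puromycin-selected vector in which doxycycline (DOX) switches on a short hairpin RNA (shRNA) against MUC1, the gene whose transmembrane subunit is MUC1-C. DOX-negative cells received 0.1% DMSO as the vehicle and DOX-positive cells received 500 ng/ml DOX, with 3 libraries in each group, and RNA came from cultures grown in triplicate. These 6 libraries include none that combined DOX with a control hairpin, so effects of the hairpin and of DOX itself cannot be told apart. Because the labels do not say whether the cultures were independent, p-values measure only the spread between these libraries.

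Thrombospondin-1 and thrombospondin-2 act on endothelial cells through CD36 and CD47 and block their migration and survival. Thrombospondin-4 belongs to the subgroup of thrombospondins that lacks type 1 repeats and is grouped here by family. ADAMTS proteases combine a metalloprotease domain with such repeats and cleave proteoglycans of the matrix, whereas the BAI receptors carry the repeats on a long extracellular part and are best known from neurons and glia. CD36 itself has no type 1 repeat and serves as a partner of proteins that do.

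Total counts were between 47620696 and 74061121 per library. Of the 17026 genes that passed the filter on low counts, edgeR's quasi-likelihood test called 829 different between the groups at an adjusted p below 0.05, with 496 higher and 333 lower with DOX. MUC1 fell from 88.2, 90.2 and 79.6 to 36.7, 37.2 and 29.9 CPM, which are counts relative to TMM-scaled library depth and are written as CPM throughout. This was a log2 fold change of -1.32 (SE 0.096, edgeR adjusted p = 0.000173). The neuroendocrine markers summed to between 1609 and 1814 CPM without DOX and to between 1342 and 1624 CPM with DOX, and 2 of the 7, INSM1 and NCAM1, were called lower in the fit of all libraries but not without DOX-negative replicate 2 or 3. Androgen receptor markers summed to at most 3.36 CPM in any library, with KLK3 at 0 counts in all 6.

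To show the start sites of a member that was higher and of a member that was lower with DOX, the bases upstream of THBS1 and ADGRB3 are printed from RefSeq (assembly GRCh38.p14, 5′ to 3′ on the plus strand, which is the coding strand of both genes). Promoters were matched for 6 of the 10 members, namely THBS1, THBS2, THBS4, ADGRB2, ADGRB3 and CD36. Capitals mark matches on either strand to 4 motifs, GGAATG (bound by TEAD factors), TGANTCA (AP-1), CACGTG (E-box) and GGGCGG (GC box). The THBS1 stretch is chr15:39580829-39581078 and the ADGRB3 stretch is chr6:68635032-68635281.
THBS1: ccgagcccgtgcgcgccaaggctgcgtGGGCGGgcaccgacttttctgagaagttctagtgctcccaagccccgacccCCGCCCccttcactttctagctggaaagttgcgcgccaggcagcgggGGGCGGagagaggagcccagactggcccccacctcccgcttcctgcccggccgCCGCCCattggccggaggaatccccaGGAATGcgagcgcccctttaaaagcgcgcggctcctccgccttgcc
ADGRB3: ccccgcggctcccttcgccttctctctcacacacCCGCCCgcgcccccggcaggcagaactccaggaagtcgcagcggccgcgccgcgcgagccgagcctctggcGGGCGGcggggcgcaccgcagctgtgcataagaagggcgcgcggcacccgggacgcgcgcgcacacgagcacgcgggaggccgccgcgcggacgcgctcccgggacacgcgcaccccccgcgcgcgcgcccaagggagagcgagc

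The THBS1 stretch was 69.6% G and C and the ADGRB3 stretch 79.2%, against a median of 58.0% over the 250 upstream bases of 27305 promoters. THBS1 held 1 TEAD motif, at -46 from the start, and 4 GC boxes, with no AP-1 motif or E-box in its window. ADGRB3 held 2 GC boxes and no match to the other 3 motifs. In the same window of 250 bases before and 50 after the start, 14.0% of all promoters held a TEAD motif, 7.76% an AP-1 motif, 7.43% an E-box and 44.6% a GC box. The TEAD motif was also present in the windows of THBS2 (2 matches) and CD36 (1 match), and THBS4 held 1 E-box. A match describes the letters only. RefSeq also places the end of LOC124903470 at 85 bases before the THBS1 start, within the printed stretch, and that locus was not analysed here.

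Levels were first compared between the members on the TPM scale, which divides counts by gene length. In both groups the mean TPM placed the 10 members in the same order, from ADGRB1 through ADGRB3, ADGRB2, THBS1, THBS4, ADAMTS9, ADAMTS1, ADAMTS5 and CD36 to THBS2. The BAI receptors thus held the top of the list, at 6.33 ± 1.15 TPM for ADGRB1, 3.79 ± 0.319 TPM for ADGRB3 and 2.21 ± 0.294 TPM for ADGRB2 without DOX (SD, n = 3). THBS1 followed at 1.13 ± 0.152 TPM and THBS4 at 0.733 ± 0.114 TPM. The proteases were lower, at 0.220 ± 0.0253 TPM for ADAMTS9, 0.0653 ± 0.00306 TPM for ADAMTS1 and 0.00742 ± 0.00414 TPM for ADAMTS5.

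Neighbours in that order had TPM ranges that did not overlap in the DOX-negative libraries, except for ADAMTS5 and CD36. In the DOX-positive libraries 5 neighbouring pairs overlapped, namely ADGRB1 with ADGRB3, ADGRB3 with ADGRB2, ADGRB2 with THBS1, ADAMTS9 with ADAMTS1, and CD36 with THBS2. With DOX, ADGRB1 had 3.20 ± 0.679 TPM, ADGRB3 2.90 ± 0.988 TPM, ADGRB2 2.53 ± 0.332 TPM and THBS1 2.18 ± 0.386 TPM (SD, n = 3). The 4 most abundant members therefore lay closer together with DOX than without it. Nothing is read from this, because ADGRB1 was selected as lower and THBS1 as higher with DOX. Within each DOX-positive library, ADGRB1 was still above ADGRB2 and THBS1. Without DOX-positive replicate 1, 8 of the 10 members had the same rank in both groups.

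**Figure D1:**
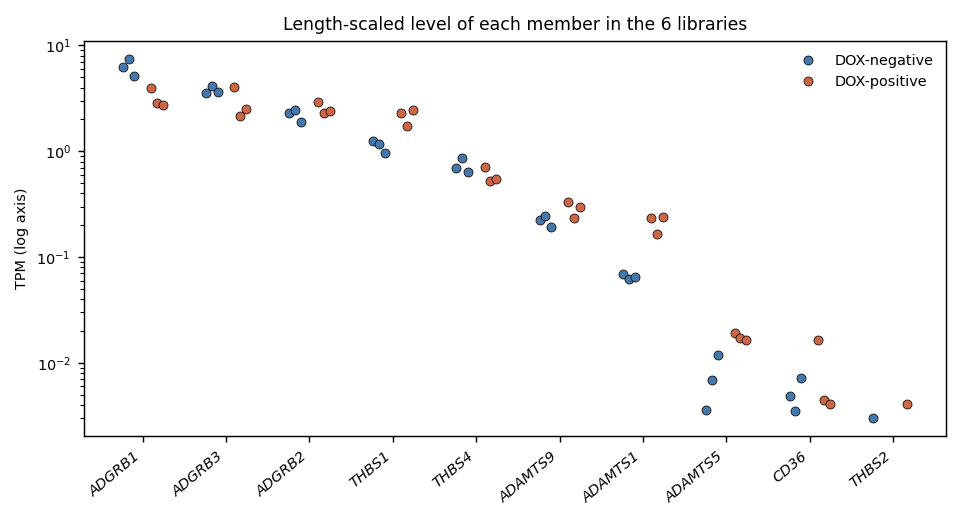
TPM of each member (log axis) in the 3 DOX-negative (blue) and 3 DOX-positive (orange) libraries, with members ordered by level and 1 point per library. The BAI receptors and THBS1 lie at about 1 TPM or above in every library, ADAMTS5, CD36 and THBS2 lie near the lower end, and the 4 libraries in which THBS2 was listed at 0 are not drawn.

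The thrombospondins were examined next, on the scale of normalized CPM, which compares libraries for 1 gene and is not divided by length. THBS1 encodes thrombospondin-1, and RefSeq places it at chr15:39581079-39599466. It was measured at 16.4, 14.3 and 15.3 CPM without DOX and at 25.2, 28.6 and 33.5 CPM with DOX. All 3 libraries with DOX were above all 3 without it. The means were 15.3 ± 1.06 and 29.1 ± 4.18 CPM (SD, n = 3). The ratio was 1.90-fold, or 0.92 on the log2 scale (SE 0.11). Leaving out 1 library at a time kept the value between 0.81 and 1.02. In TPM the libraries had 1.26, 1.16 and 0.964 without DOX and 2.31, 1.74 and 2.47 with DOX, and the groups did not overlap on that scale either. FSIP1 overlaps the 3′ end region of THBS1 in RefSeq and had a mean of only 26.7 counts per library, against 729 to 2468 counts per library for THBS1.

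THBS4 (chr5:79991332-80083287) encodes a thrombospondin of muscle, tendon and nervous tissue and moved in the opposite direction, by less. It had 4.41, 5.16 and 4.98 CPM without DOX and 3.80, 4.22 and 3.59 CPM with DOX. The lowest DOX-negative library lay only just above the highest DOX-positive one. The log2 fold change was -0.33 (SE 0.12), with group means of 4.85 ± 0.388 and 3.87 ± 0.319 CPM (SD, n = 3). On the TPM scale the groups overlapped, since DOX-positive replicate 1 had 0.715 TPM and DOX-negative replicates 1 and 3 had 0.695 and 0.642 TPM.

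THBS2 (chr6:169215785-169253846), which encodes the other thrombospondin with type 1 repeats, was hardly counted in these cells. It had 2, 0 and 0 counts without DOX and 0, 3 and 0 counts with DOX. A count of 0 allows up to 3 counts, or 0.0397 to 0.0630 CPM in these libraries, so no library was above that limit and no fold change is given. Such limits cover counting error only. THBS1 to THBS4 was 1.81, 1.35 and 1.50 in TPM within the DOX-negative libraries and 3.23, 3.30 and 4.54 within the DOX-positive libraries.

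Among the proteases, ADAMTS1 had the largest fold change of the 8 fitted members when all libraries were used, and ADAMTS5 passed it without DOX-negative replicate 3 (log2 fold change 1.82 against 1.77). ADAMTS1, which cleaves aggrecan and versican and was first described with an anti-angiogenic activity, lies at chr21:26835755-26845409. Its abundance was 0.563, 0.485 and 0.651 CPM without DOX and 1.63, 1.71 and 2.06 CPM with DOX. The lowest DOX-positive library exceeded the highest DOX-negative one by a wide margin relative to the spread within either group. The means were 0.566 ± 0.0831 and 1.80 ± 0.231 CPM (SD, n = 3). The ratio was 3.20-fold, or 1.68 on the log2 scale (SE 0.20). These values rest on 36, 30 and 31 counts against 123, 94 and 152 counts, and leaving out 1 library kept the log2 fold change between 1.56 and 1.77.

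ADAMTS5, an aggrecan-cleaving protease of cartilage, is the neighbour of ADAMTS1 on the same chromosome (chr21:26917922-26967088), with 72.5 kb between the genes. It was counted 4, 7 and 12 times without DOX and 21, 21 and 22 times with DOX. In CPM this was 0.0626, 0.113 and 0.252 against 0.278, 0.382 and 0.298. All DOX-positive libraries were higher, but the DOX-negative libraries differed among themselves by more than the gap between the groups. The log2 fold change was 1.22 (SE 0.44), and leaving out DOX-negative replicate 1 or 3 moved it to 0.84 or 1.82. More than 10 counts were reached in the 3 DOX-positive libraries and in 1 DOX-negative library, so ADAMTS5 owed its place among the fitted genes mostly to the group in which it was higher.

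ADAMTS9 (chr3:64515654-64688000), a protease that is secreted and held at the cell surface, was the most abundant of the 3 proteases and differed least. It had 2.94, 3.01 and 3.09 CPM without DOX and 3.61, 3.86 and 4.06 CPM with DOX. Both groups were tight, and they did not overlap on this scale. The log2 fold change was 0.35 (SE 0.12), or 1.28-fold. In TPM the groups overlapped, because DOX-positive replicate 2 had 0.233 and DOX-negative replicate 2 had 0.242. The antisense transcripts ADAMTS9-AS1 and ADAMTS9-AS2 had means of 0.167 and 0 counts per library.

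Within each library, ADAMTS1 was 0.306, 0.258 and 0.337 of the ADAMTS9 TPM without DOX and 0.720, 0.708 and 0.812 of it with DOX. This ratio does not depend on how a library is scaled, but ADAMTS1 was selected because it was higher with DOX. The means were 0.300 ± 0.0399 and 0.747 ± 0.0569 (SD, n = 3), so the proteases differed by unequal amounts.

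Protein-coding genes next to THBS1, ADAMTS1 and ADAMTS5, leaving out genes that overlap them, were compared as well. Those next to ADGRB1 were not examined. GPR176, an orphan G protein-coupled receptor gene, starts 199.542 kb beyond THBS1. Most of that gap is spanned by FSIP1 (chr15:39597440-39782841), which overlaps THBS1 and whose change was not examined. GPR176 was higher with DOX at 8.86 ± 0.834 against 5.74 ± 0.647 CPM (SD, n = 3; log2 fold change 0.62, SE 0.12, edgeR adjusted p = 0.0161). This call was lost without DOX-negative replicate 2 or 3 (edgeR adjusted p = 0.0678 and 0.0986). On chromosome 21, CYYR1, on the other side of ADAMTS1, had 0 counts in every library. HEMK2, which follows ADAMTS5 and is listed under its older name N6AMT1, had a log2 fold change of 0.07 (SE 0.14, edgeR adjusted p = 0.82).

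**Figure D2:**
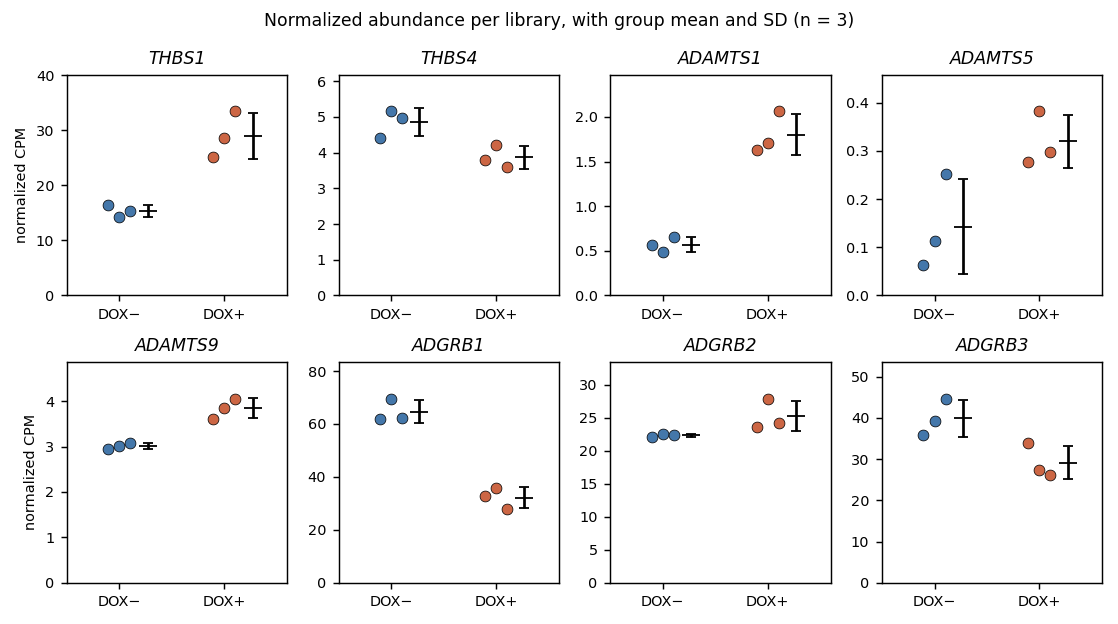
Normalized CPM of the 8 fitted members (linear axes from 0, with a scale for each panel), with 1 point per library and the group mean with SD (n = 3) beside the points. THBS1 and ADAMTS1 show the DOX-positive libraries far above the DOX-negative ones and ADGRB1 the reverse, whereas ADGRB2 and THBS4 show groups that nearly touch.

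Attention then turned to the BAI receptors. ADGRB1 encodes BAI1, which binds phosphatidylserine on dying cells and whose cleaved repeats inhibit endothelial cells. Its abundance was 62.0, 69.6 and 62.3 CPM without DOX and 32.7, 35.8 and 27.9 CPM with DOX. The groups were far apart on this scale. The means were 64.6 ± 4.26 and 32.1 ± 3.96 CPM (SD, n = 3). ADGRB1 was thus 2.01-fold lower, or -1.01 on the log2 scale (SE 0.098). Leaving out 1 library kept the value between -1.09 and -0.92. Its TPM values were 6.31, 7.49 and 5.19 without DOX and 3.97, 2.88 and 2.73 with DOX, again without overlap.

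ADGRB3 (chr6:68635282-69389506) encodes BAI3, a synaptic receptor for C1q-like proteins. It had 35.8, 39.4 and 44.7 CPM without DOX and 33.8, 27.5 and 26.2 CPM with DOX. DOX-positive replicate 1 came close to the lowest DOX-negative library, and the other DOX-positive libraries lay well below. The log2 fold change was -0.45 (SE 0.11), or 1.37-fold lower, with a range of -0.57 without DOX-positive replicate 1 to -0.37 without DOX-negative replicate 3. On the TPM scale the groups overlapped, with 4.03 in DOX-positive replicate 1 against 3.57, 4.15 and 3.64 in the DOX-negative libraries.

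ADGRB2 (chr1:31727117-31764340), which encodes BAI2, was slightly higher with DOX. It had 22.0, 22.6 and 22.4 CPM without DOX and 23.6, 27.9 and 24.3 CPM with DOX. The DOX-negative libraries were nearly identical, and the excess with DOX came mostly from replicate 2. The log2 fold change was 0.18 (SE 0.089), and it was 0.10 without DOX-positive replicate 2. TPM placed DOX-positive replicate 2 at 2.28 and DOX-negative replicate 2 at 2.47, so the groups overlapped there.

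The balance among the receptors was examined within libraries. ADGRB2 to ADGRB1 was 0.361, 0.330 and 0.365 in TPM without DOX and 0.732, 0.792 and 0.883 with DOX. ADGRB3 to ADGRB1 was 0.565, 0.555 and 0.703 without DOX and 1.01, 0.752 and 0.920 with DOX. Both ratios were higher in every library with DOX. Their denominator, ADGRB1, was selected because it was lower with DOX, so nothing is read from that direction. ADGRB3 reached the level of ADGRB1 in DOX-positive replicate 1. THBS1 to ADGRB1, the pair with opposite directions on which the set was selected, was 0.200, 0.155 and 0.186 without DOX and 0.582, 0.604 and 0.907 with DOX.

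**Figure D3:**
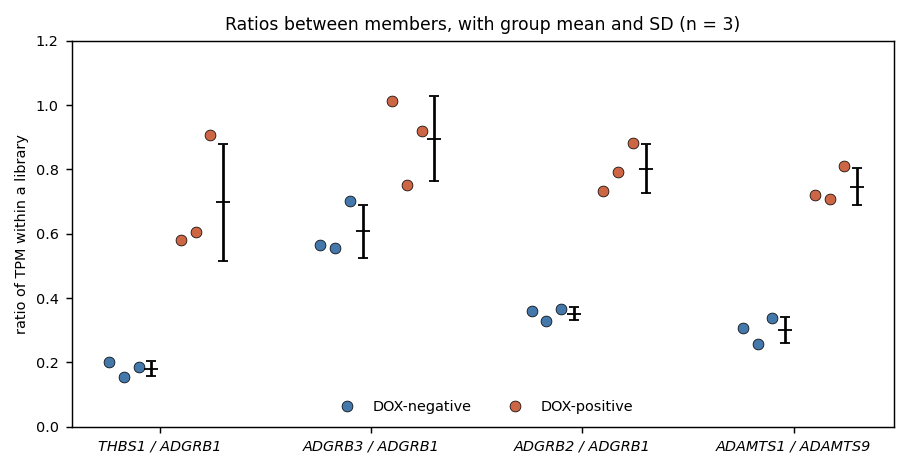
Ratios between the TPM of 2 members within the same library (linear axis from 0), with 1 point per library and the group mean with SD (n = 3). Every DOX-positive library lies above every DOX-negative library for the 4 ratios, with means of 0.180 and 0.697 for THBS1 to ADGRB1 and of 0.352 and 0.803 for ADGRB2 to ADGRB1. Each ratio holds ADGRB1 or ADAMTS1, on which the set was selected, so the separation is a description only.

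Summed over the family, the 3 receptors had 12.3 ± 1.70 TPM without DOX and 8.63 ± 1.98 TPM with DOX (SD, n = 3). They made up 85.1% ± 0.735 of the summed TPM of all 10 members, CD36 included, without DOX and 72.1% ± 3.57 with DOX. The share of the thrombospondins was 12.9% ± 0.660 without DOX and 23.5% ± 3.11 with DOX. The proteases held 2.03% ± 0.122 and 4.36% ± 0.500. The receptors thus remained the largest class by TPM in both groups. Each class holds a gene on which the set was selected (ADGRB1, THBS1 or ADAMTS1). The differences in sums and shares between the groups are therefore a description only.

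CD36 (chr7:80602207-80679274), a scavenger receptor of endothelial cells, monocytes and platelets, was near the limit of counting. It had 3, 2 and 4 counts without DOX and 10, 3 and 3 counts with DOX. Only DOX-negative replicate 3 and DOX-positive replicate 1 were above the limit of 3 counts, so a difference was not detectable at this depth and no fold change is given. Markers of other cell types were summed for comparison. The 7 endothelial markers summed to between 4.22 and 5.48 CPM without DOX and to between 7.29 and 8.73 CPM with DOX. Mean counts per library were 3.33 for PECAM1, 2 for EMCN, 1 for TEK and 0.333 for CLDN5. Of the 3 tested, CDH5 and VWF were called higher (log2 fold change 0.94 and 0.97, edgeR adjusted p = 0.0132 and 0.0176), and KDR had -0.74 (edgeR adjusted p = 0.437). The 7 monocyte and platelet markers summed to between 6.50 and 9.44 CPM over all libraries, with PPBP at 0. Nearly all of this was ITGA2B (means of 5.47 CPM without and 5.93 CPM with DOX) and CD14 (1.47 and 1.63 CPM). LYZ, CSF1R, GP9 and PTPRC had means of 2.5, 2, 0.333 and 0.167 counts. The 7 fibroblast markers summed to between 25.2 and 30.7 CPM without DOX and to between 23.5 and 27.9 CPM with DOX. COL3A1 was at 0, and mean counts were 0.667 for DCN, 0.5 for PDGFRB and 6.17 for PDGFRA. Of the 3 tested, COL1A1 and LUM were called higher (0.60 and 1.06, edgeR adjusted p = 0.0187 and 0.0297), whereas COL1A2 went from 18.1 ± 3.48 to 11.1 ± 3.77 CPM (SD, n = 3; -0.71, edgeR adjusted p = 0.203). The 4 calls were each lost without DOX-negative replicate 2 (edgeR adjusted p from 0.0694 to 0.126) or without DOX-negative replicate 3 (0.086 to 0.138), and that of LUM also without DOX-positive replicate 3 (0.0774). The libraries were made from cultures of the H660 line, and a part of other cells in the members' differences was not tested. In bulk libraries fewer cells of a type and less RNA per cell cannot be told apart.

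Set against all genes, 8 of the 10 members passed the filter on low counts, 5 with higher and 3 with lower means with DOX. Of these 8, 4 were called by edgeR, with THBS1 and ADAMTS1 higher and ADGRB1 and ADGRB3 lower, where 4.87% of all tested genes were called, 2.91% higher and 1.96% lower. Because the set was selected on this contrast, nothing is read from that count or from the overlap and median that follow. The CPM of the groups did not overlap for all 8, against 28.1% of tested genes. Among the 8 is ADAMTS5, which passed the filter mostly through its DOX-positive libraries. In TPM the groups did not overlap for only 4, which were THBS1, ADAMTS1, ADAMTS5 and ADGRB1. The share of all tested genes was not computed on the TPM scale, so the count in TPM has no background. The median log2 fold change was 0.26 over the 8 fitted members and 0.00034 over all tested genes.

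These calls also had limits of their own. The ADGRB3 call was lost in 8 of 16 alternatives, among them the fits without DOX-negative replicate 2 (-0.46), DOX-negative replicate 3 (-0.37), DOX-positive replicate 2 (-0.41) or DOX-positive replicate 3 (-0.38, all log2 fold changes). The THBS1 call was lost in the 3 fits of TPM and the ADGRB1 call in the unfiltered one. On the TPM scale a library's values for a given CPM varied by a factor of 0.824 to 1.24 relative to the average library, and the 10 most abundant genes, led by RN7SK or SNORD3A, held 74.9% to 82.8% of TPM.

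**Figure D4:**
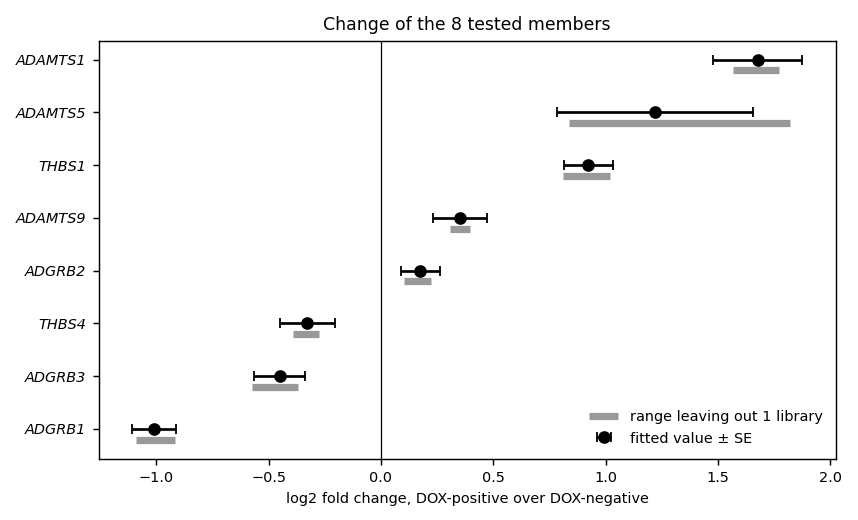
Log2 fold change of the 8 fitted members, DOX-positive over DOX-negative, with the SE from edgeR (black) and the range of values when 1 library is left out (grey). ADAMTS1 and ADGRB1 lie at the ends, at 1.68 and -1.01, and ADAMTS5 has the widest range, from 0.84 to 1.82.

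Genes related to the members were then counted by list, apart from the members themselves. Of 155 such genes, 112 were tested and 12 were called, 8 higher and 4 lower with DOX. That is 10.7%, beside 4.87% of all tested genes, and their median log2 fold change was 0.02. As the background for the counts by list that follow, 21.1% of all tested genes had an unadjusted p under 0.05 in edgeR, and DESeq2 called 8.43% of those to which it gave an adjusted p. The count varied when single libraries were left out, and leaving out DOX-negative replicate 3 left 0 called. Such fits also have less power, so a lost call need not mean that it rested on that library. Leaving out DOX-negative replicate 2 left 1 higher and 0 lower, and leaving out DOX-negative replicate 1 left 6 and 2. Leaving out DOX-positive replicate 1, 2 or 3 gave 11 and 7, 6 and 6, or 4 and 3. The adjusted p-values of these genes are from edgeR over all tested genes.

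Neither of the other thrombospondins was called. THBS3 had a log2 fold change of -0.24 (SE 0.10, edgeR adjusted p = 0.207) and COMP one of -0.49 (SE 0.32, edgeR adjusted p = 0.408), with 1 of them at an unadjusted p under 0.05 and 0 called by DESeq2. The thrombospondin-1 receptor CD47 was abundant and nearly level, with means of 253 ± 12.6 and 262 ± 55.7 CPM in the DOX-negative and DOX-positive libraries (SD, n = 3; log2 fold change 0.051, edgeR adjusted p = 0.859). Of the 14 tested thrombospondin receptors 0 were called by edgeR, 3 had an unadjusted p under 0.05 (21.1% of all tested genes had one) and 1 was called by DESeq2, the calcium sensor STIM1 (log2 fold change 0.31, DESeq2 adjusted p = 0.0188).

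Among the other ADAMTS proteases, 2 of 9 tested genes were called, both lower, while 5 had positive and 4 negative log2 fold changes. ADAMTS14, a procollagen N-propeptidase, had 11.3, 12.6 and 14.7 CPM without DOX and was lowest in DOX-positive replicate 3, at 6.20 CPM, for a log2 fold change of -0.69 (SE 0.15, edgeR adjusted p = 0.0231). ADAMTS18 had 10.9 ± 0.817 and 8.03 ± 0.319 CPM (SD, n = 3), for -0.44 (SE 0.099, edgeR adjusted p = 0.028). The groups did not overlap for either gene, and these directions were opposite to that of ADAMTS1. ADAMTS14 lost its call in 5 of 16 alternatives (adjusted p from 0.000291 to 1) and ADAMTS18 in 5 of 14 (0.0039 to 0.97).

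In the ADAMTS-like list 1 of 6 tested genes was called. THSD4 (ADAMTSL6), which promotes fibrillin assembly, rose from 8.41 ± 0.908 to 12.4 ± 0.384 CPM (SD, n = 3; log2 fold change 0.56, SE 0.10, edgeR adjusted p = 0.0133). Its call was lost in 3 of 14 alternatives, which were 1 TPM fit and the fits without DOX-negative replicate 2 or 3 (edgeR adjusted p = 0.0807 and 0.0904). Of the ADAMTS substrates and the inhibitor, 0 of 7 were called by edgeR, 4 had an unadjusted p under 0.05, and 3 were called by DESeq2, beside the backgrounds of 21.1% and 8.43%. These 3 were the metalloprotease inhibitor TIMP3 (0.66, DESeq2 adjusted p = 0.0226), the link protein HAPLN1 (-0.94, DESeq2 adjusted p = 0.00887) and the proteoglycan VCAN, versican (-0.29, DESeq2 adjusted p = 0.0432), each given as a log2 fold change from edgeR.

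Of the other type 1 repeat proteins 20 were tested, 16 had positive and 4 negative log2 fold changes, and 3 were called, all higher. CCN1, a matricellular protein listed under its older name CYR61, had 8.59, 7.47 and 7.37 CPM without DOX and 10.8, 12.3 and 13.1 CPM with DOX, a log2 fold change of 0.63 (SE 0.11, edgeR adjusted p = 0.0112). CCN3, listed as NOV, changed by 0.46 (SE 0.12, edgeR adjusted p = 0.0457) and the netrin receptor gene UNC5B by 0.37 (SE 0.083, edgeR adjusted p = 0.0271). The call of CCN3 was lost in 11 of 16 alternatives (adjusted p from 0.0142 to 1), against 5 for CCN1 and 6 for UNC5B. CCN2 (CTGF) had a log2 fold change of 0.52 and was not called (edgeR adjusted p = 0.0777).

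The enzymes that add sugars to type 1 repeats were all tested, because the repeats need O-fucose and C-mannose for folding and secretion. The O-fucosyltransferase POFUT2 had a log2 fold change of -0.19 (edgeR adjusted p = 0.215) and B3GLCT, which extends the fucose with glucose, one of 0.16 (edgeR adjusted p = 0.404). The C-mannosyltransferase genes DPY19L1 and DPY19L3 had 0.25 and -0.22 (edgeR adjusted p = 0.211 and 0.206), and their homologues DPY19L2 and DPY19L4 had -0.28 and -0.10 (edgeR adjusted p = 0.329 and 0.656). Of the 6 genes 0 were called by edgeR or DESeq2, and 3 had an unadjusted p under 0.05, beside 21.1% of all tested genes.

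Genes tied to the signalling of the BAI receptors comprised 20 tested genes, of which 2 were called. BAIAP3, a vesicle release protein named for its binding to BAI1, fell from 7.57 ± 0.261 to 5.20 ± 0.720 CPM (SD, n = 3; log2 fold change -0.54, SE 0.12, edgeR adjusted p = 0.0275). DLG4, the postsynaptic scaffold PSD-95, rose from 12.3 ± 0.464 to 15.8 ± 1.11 CPM (0.36, SE 0.091, edgeR adjusted p = 0.0448), and its call was lost in 10 of 16 alternatives, against 5 of 14 for BAIAP3.

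Angiogenesis inhibitors outside the repeat families also moved in both directions. COL18A1, the precursor of endostatin, fell from 182, 215 and 191 CPM to 142, 146 and 103 CPM, a log2 fold change of -0.59 (SE 0.12, edgeR adjusted p = 0.0193). SEMA3A, a secreted semaphorin, rose from 19.4 ± 1.35 to 27.3 ± 4.75 CPM (SD, n = 3; 0.49, SE 0.12, edgeR adjusted p = 0.0349). These were 2 of 7 tested genes, and their calls were lost in 6 and 7 of 16 alternatives (adjusted p up to 1).

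On the side of angiogenic factors, 2 of 15 tested genes were called, both higher, while 8 had positive and 7 negative log2 fold changes. CXCL8, the chemokine interleukin-8, had 1.47, 1.83 and 1.93 CPM without DOX and 3.29, 3.80 and 5.57 CPM with DOX, a log2 fold change of 1.28 (SE 0.20, edgeR adjusted p = 0.00722). ANGPTL4 rose from 2.54 ± 0.363 to 4.52 ± 0.731 CPM (SD, n = 3; 0.82, SE 0.16, edgeR adjusted p = 0.0161). The ANGPTL4 call was lost in the 3 TPM fits and without DOX-negative replicate 2 or 3 (edgeR adjusted p = 0.0739 and 0.104). The CXCL8 call was lost without DOX-negative replicate 3 (1.35, edgeR adjusted p = 0.0571) and in 1 TPM fit. VEGFA had a log2 fold change of 0.030 (edgeR adjusted p = 0.87). Thrombospondin-1 can activate latent TGF-β, and of 6 tested genes of that system 0 were called by edgeR or DESeq2, with 2 at an unadjusted p under 0.05, beside 21.1% of all tested genes.

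**Figure D5:**
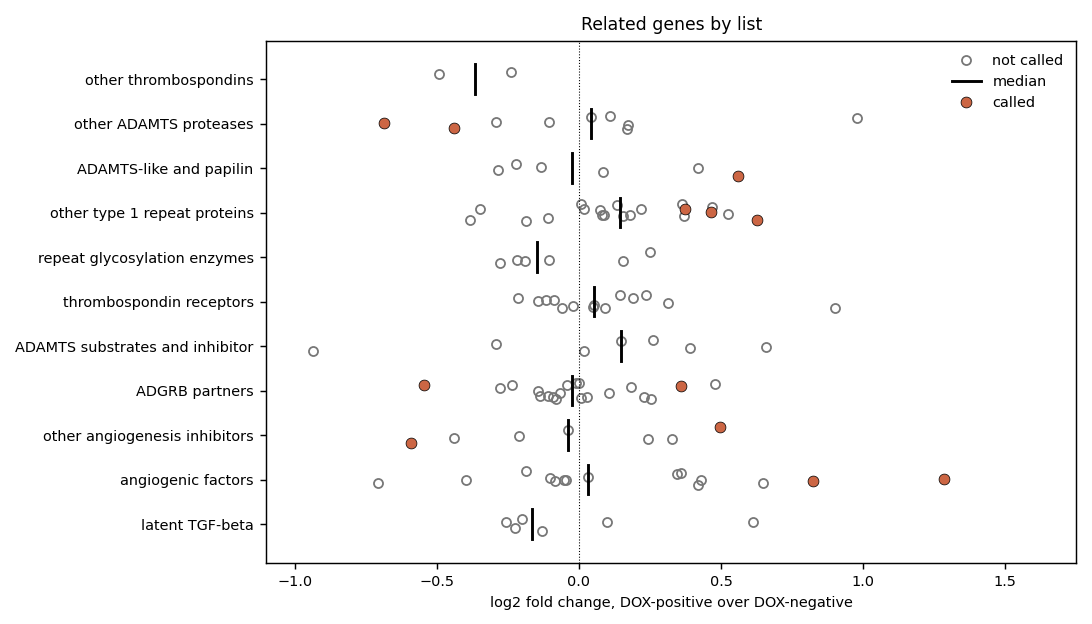
Log2 fold change (DOX-positive over DOX-negative, edgeR) of each tested related gene, in rows by list, with genes called at an adjusted p below 0.05 filled and the list median as a bar. The medians lie between -0.37 and 0.15, and the called genes fall on both sides of 0.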

How the data were processed

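RNA from 3 DOX-negative and 3 DOX-positive H660 cultures was made into stranded mRNA libraries per the labels. In each library, however, the leading gene by TPM was RN7SK or SNORD3A, neither of which is an mRNA. How this relates to the library type was not examined. Raw counts for each gene symbol were deposited by the authors, and the submitters' processing notes name STAR, DESeq2 and GRCh38 (hg38). The authors also deposited TPM values, which are counts per gene length scaled to a common total. How strand was handled in counting, and which annotation was used, are not given in the sources used here. Groups were read from the sample titles. Libraries of 1 group differed beyond sampling noise, with a chi-square of 15.6 to 95.5 per degree of freedom over 16959 genes in 6 pairs.

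Counts were filtered with filterByExpr, scaled by TMM (factors 0.967 to 1.03) and tested with edgeR 4.0.16 (R 4.3.3, robust quasi-likelihood, two-sided), with Benjamini-Hochberg adjustment over 17026 genes. The biological coefficient of variation was 9.58%. Alternatives were other scalings and filters, DESeq2 1.42.0, limma 3.58.1 on log2 TPM with pseudocounts of 1 and 0.1, a replicate block and leaving out each library. The code was tested on simulated data.

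The members and lists were chosen with earlier results of these data known, and the related lists were written by hand. Named were the members, MUC1, all repeat glycosylation enzymes, up to 4 called genes per list and the nearest protein-coding neighbours of THBS1, ADAMTS1 and ADAMTS5. Genes that overlap a member were passed over in the choice of neighbours. CD47, THBS3, COMP, STIM1, TIMP3, HAPLN1, VCAN, CCN2, VEGFA and the cell type markers given were named after their values were seen. Gene positions came from RefSeq (GRCh38.p14), which also linked 7 older symbols to current ones.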

Additional observations from a re-analysis of the deposited data

How the results depend on the processing

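Counts of calls varied with the scale and when single libraries were left out, which also lowers power. Of the members called higher (2), 0 were called by limma on log2(TPM + 1), and 0 with a pseudocount of 0.1, when genes under a mean of 1 TPM were removed, and 1 was called on unfiltered log2(TPM + 1). Members called lower (2) numbered 1, 1 and 0 in these fits and 1 with no scaling factors. The related genes called numbered 0 higher and 0 lower in each of the 3 TPM fits, against 8 and 4, and DESeq2 called 7 lower. The tested members whose groups did not overlap numbered 8 by CPM and 4 by TPM, a comparison added after the data were seen. By CPM the share of all tested genes was 28.1%, and by TPM it was not computed. The members were selected on this contrast, so nothing is read from these counts. The filtered TPM fits could hold only 4 of the members, and 66 related genes against 112 in the main fit. ADAMTS1, with a mean of 0.140 TPM, was not in them and was called in all 14 alternatives that held it. Leaving out 1 library gave 2 members called higher each time and 1 to 2 called lower, 0 to 11 related genes called higher and 0 to 7 called lower, and 8 to 10 members with the same rank by level in both groups.

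The replicate numbers did not pair the libraries, since the deviations of same-numbered libraries correlated at -0.56, 0.022 and -0.077. With a replicate block, 2 members were called higher and 2 lower, and 10 related genes were called higher and 5 lower. What caused these shifts in the counts was not tested. For the 12 related genes called, 114 values kept direction and call, 70 kept direction and lost the call, and 0 changed sign over up to 16 alternatives. Among 26 other genes named, 3 values changed sign, none of them called, which were CD47 without DOX-positive replicate 3 (-0.13, in a range up to 0.18), VEGFA without DOX-positive replicate 1 (-0.032, up to 0.095) and HEMK2 without DOX-negative replicate 1 (-0.016, up to 0.13), and 14 values passed the threshold only in an alternative. Calls were also lost among these 26 genes, for example that of INSM1 in 8 of 16 alternatives and that of MUC1 in 1 of 16. With 3 libraries a group, the low counts of ADAMTS5, CD36 and THBS2 limit their precision.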
